A study of Mus musculus with 2 samples.

Results

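Hnf4a, Hnf4g, Nr1h4, Ppara, Ppargc1a, Esrra and Esrrg encode regulators of tubule identity and of oxidative metabolism in the kidney, and their RNA was compared between 1 normal kidney library and 1 kidney tumour library of the mouse. They were picked by symbol, 7 of the 30744 symbols in the deposited table, and each symbol had 1 gene model. All 7 passed the minimum of 20 reads, and all 7 were called lower in the tumour, by between 7.50-fold (Esrra) and 90.9-fold (Hnf4a), where 28.0% of the 16326 measured genes were called lower. The normal library came from a kidney labelled wild type that received no doxycycline. The other library was made from tumour tissue of the kidney, with Tet-OSKM/mPer2-luc as the genotype and with doxycycline. In this system doxycycline, through the transactivator M2rtTA expressed from the Rosa26 locus, switches on the reprogramming factors Oct4, Sox2, Klf4 and c-Myc, and mPer2-luc is a reporter of the clock gene Per2. Both labels give a C57BL/6 x DBA/2 F1 background, and the protocol that goes with both describes chimeras made from embryonic stem cells carrying the transgenes, so a kidney of such an animal holds both transgenic and host cells. Whether the normal kidney was that of a chimera is not stated. The sources used here give no length of treatment, age or sex. With 1 library per group there is no replicate check, and every value below compares these 2 libraries and not the conditions.

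HNF4A and HNF4G are nuclear receptors that bind DNA as dimers. HNF4A keeps hepatocytes, gut epithelium and the proximal tubule in their mature state, where it drives transporters, gluconeogenic enzymes and apolipoproteins. PPARA, a receptor for fatty acids, drives their oxidation in mitochondria and peroxisomes, the main fuel supply of the proximal tubule. PGC-1alpha (gene Ppargc1a) is a coactivator without a DNA-binding domain of the receptor type that raises mitochondrial gene expression, largely through the estrogen-related receptors ERRalpha (Esrra) and ERRgamma (Esrrg). FXR (Nr1h4) is the bile acid receptor, which is also made in the proximal tubule, and pairs with a retinoid X receptor, as PPARA does.

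Levels between genes are compared as the authors' RPKM, which are reads scaled to transcript length and to the reads of the library. Ratios between the libraries come from counts scaled with TMM, a method that balances libraries of different composition, and levels on that scale are written as CPM. Each bracketed range is a 95% interval for counting error only. The call of higher or lower required a 2-fold ratio or more and an interval without 1. Measured genes had at least 20 reads over both libraries. Besides the 28.0% called lower, 31.2% of them were called higher, and their median log2 ratio (tumour over normal) was 0.08. Higher calls were 52.8% of all calls, and 67.6% when counts were scaled to counted reads alone, which raised the median by 0.56. Counted reads came to 29258428 for normal kidney and 20836819 for tumour, with 10.6% and 1.22% of them on mitochondrial models and 0.304% and 2.73% on the ribosomal RNA precursor Rn45s.

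Hnf4a (chromosome 2, 163547188 to 163572907, mm10, plus strand) had 25140 reads in normal kidney and 290 in tumour. That was 143 RPKM (141 to 145) against 2.01 RPKM (1.79 to 2.26). On the CPM scale the tumour value was 11.5 against 1042 in the normal kidney, 90.9-fold lower (80.9 to 102). In the normal library Hnf4a stood above 98.0% of the measured genes in RPKM, and in the tumour above 34.9%. Only 225 of the 16326 measured genes had a lower ratio.

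RefSeq places a pair of start sites at Hnf4a, and the deposited model begins 33 bases from the downstream of them (163547155). The upstream start lies 40331 bases before the model, so the counts do not tell which start was in use. The 250 bases before the downstream start of Hnf4a and before the start of Nr1h4 are shown because these were the 2 regulators with the lowest ratios and because the deposited models begin at or near these starts. The sequences are from RefSeq on GRCm38.p6, the assembly of mm10, 5′ to 3′ on the strand of the gene. Capitals would mark the 4 motifs named next, which have no match in them.
Hnf4a, chr2:163546905-163547154, plus strand: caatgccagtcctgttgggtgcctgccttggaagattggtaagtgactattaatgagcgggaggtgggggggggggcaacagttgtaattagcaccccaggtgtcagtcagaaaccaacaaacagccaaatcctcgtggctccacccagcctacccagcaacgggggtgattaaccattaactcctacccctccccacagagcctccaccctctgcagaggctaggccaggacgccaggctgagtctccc
Nr1h4, chr10:89506659-89506908, minus strand: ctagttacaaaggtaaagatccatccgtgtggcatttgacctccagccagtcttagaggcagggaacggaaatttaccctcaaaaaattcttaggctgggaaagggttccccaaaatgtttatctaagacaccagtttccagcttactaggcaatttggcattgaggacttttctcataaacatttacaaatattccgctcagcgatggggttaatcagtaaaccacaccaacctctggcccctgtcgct
RefSeq promoter windows were searched over the 250 bases before each start. Of these windows 10 belong to 6 of the 7 regulators. Hnf4g is named only. In these 10 windows CAAAGTCCA (HNF4), TCAAGGTCA (estrogen-related receptors) and the direct and the inverted repeat of AGGTCA with any 1 base between, searched on both strands, had no match, which says only that these letters are not in these windows. The 4 motifs stood in 126, 127, 11 and 2 of all 32851 windows.

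Hnf4g (chromosome 3, 3508030 to 3659800, plus strand), the paralog of Hnf4a, was the least abundant of the 7 in both libraries. It had 377 reads and 2.24 RPKM (2.02 to 2.47) in the normal library and 22 reads and 0.159 RPKM (0.0997 to 0.241) in the tumour. The ratio was 17.96-fold lower (11.7 to 29.0), with the widest interval of the 7 on the log scale. Hnf4a exceeded Hnf4g 63.95-fold in RPKM in normal kidney and 12.6-fold in the tumour, so the difference between the libraries was 5.06 times larger for Hnf4a (3.08 to 7.92). Such a comparison of 2 genes within each library does not depend on how the libraries are scaled.

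Nr1h4 (chromosome 10, 89454234 to 89506658, minus strand), the gene of the bile acid receptor, had 5282 reads and 66.2 RPKM (64.4 to 68.0) in the normal library. In the tumour it had 86 reads and 1.31 RPKM (1.05 to 1.62). It was 64.4-fold lower (52.0 to 80.6), second to Hnf4a among the 7, and the difference was 1.41 times larger for Hnf4a (1.09 to 1.80).

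Ppara (chromosome 15, 85735564 to 85806851, plus strand), the regulator of fatty acid oxidation, had 6647 reads in normal kidney and 205 in tumour. Its level was 22.8 RPKM (22.3 to 23.4) against 0.858 RPKM (0.745 to 0.984), and its ratio 33.99-fold lower (29.6 to 39.2).

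Ppargc1a (chromosome 5, 51454249 to 51553921, minus strand), the gene of PGC-1alpha, had 2740 and 55 reads. Its level was 10.5 RPKM (10.1 to 10.9) in the normal library and 0.257 RPKM (0.194 to 0.335) in the tumour, a 52.2-fold lower ratio (40.0 to 69.5). The RefSeq start used for its promoter window lies 13804 bases before the start of the deposited model.

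The estrogen-related receptors, through which PGC-1alpha acts on mitochondrial genes, differed from each other. Esrra (chromosome 19, 6910977 to 6921808, minus strand) had 2956 reads in normal kidney and 413 in tumour, 32.7 RPKM (31.6 to 33.9) against 5.57 RPKM (5.05 to 6.14). It was 7.50-fold lower (6.77 to 8.34), the smallest difference of the 7. The last 50 bases of its model overlap Trmt112 on the opposite strand, which had 301 and 382 reads. The sources used here do not give whether the counting used strand, and the part of these reads in the Esrra count was not tested. Mir6990, which lies within Esrra on its strand, had 14 and 5 reads.

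Esrrg (chromosome 1, 187997827 to 188214884, plus strand) had 1942 reads and 9.09 RPKM (8.69 to 9.51) in the normal library. In the tumour it had 73 reads and 0.416 RPKM (0.326 to 0.524), a 27.9-fold lower ratio (22.1 to 35.7). RefSeq gives Esrrg 4 starts, of which 1 is that of the model and the others lie 345586 to 388821 bases before it. Esrra exceeded Esrrg 3.599-fold in RPKM in normal kidney and 13.4-fold in the tumour. The model of Esrrg and those of Ppara and Ppargc1a overlap other models of the table with 0 reads in both libraries, and no model of the table overlaps Hnf4a, Hnf4g or Nr1h4.

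**Figure D1:**
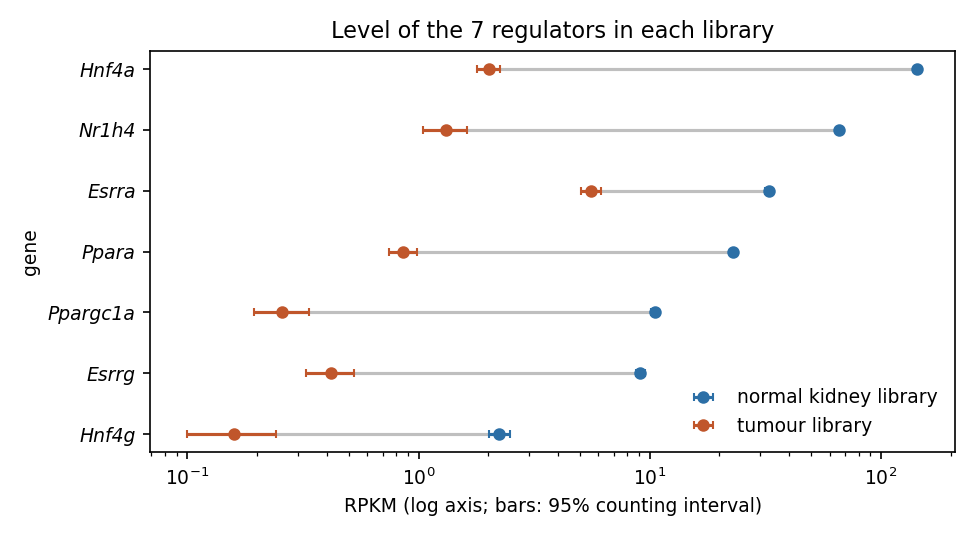
Level of each of the 7 regulators in RPKM (log axis) in the normal library (blue) and the tumour library (orange), 1 library each, with bars for the 95% counting interval. Every gene was lower in the tumour, and Hnf4a led the normal library at 143 RPKM whereas Esrra led the tumour at 5.57 RPKM.

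The order of the levels changed between the libraries. In the normal kidney it ran Hnf4a, Nr1h4, Esrra, Ppara, Ppargc1a, Esrrg, Hnf4g, and no neighbours in that order had overlapping intervals. In the tumour it ran Esrra, Hnf4a, Nr1h4, Ppara, Esrrg, Ppargc1a, Hnf4g, where the intervals of Esrrg and Ppargc1a overlapped, as did those of Ppargc1a and Hnf4g. Esrra was 0.229 of the level of Hnf4a in the normal library and 2.77 times its level in the tumour. Of the 21 pairs of the 7 genes, 18 differed in their tumour over normal ratio beyond the counting interval. The pairs that did not were Esrrg with Hnf4g (ratio of ratios 1.55, 0.905 to 2.57), Ppara with Esrrg (1.22, 0.915 to 1.61) and Nr1h4 with Ppargc1a (1.23, 0.860 to 1.76).

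Set against all measured genes, 7 of 7 regulators were called lower, where the background was 28.0%. At least 4-fold lower were 7 of 7 (background 15.8%), at least 16-fold 6 of 7 (5.40%) and at least 64-fold 2 of 7 (1.83%). The last count was 0 of 7 when scaled to counted reads alone and 1 of 7 with header totals, and the 16-fold count was 5 of 7 with each. With 1 added to each RPKM, the 4-fold, 16-fold and 64-fold counts were 6, 2 and 0 of 7. The background shares given here were computed with TMM scaling only. Of all measured genes 18.5% were at least 4-fold higher, and with a 1.5-fold call 35.1% were lower and 38.4% higher. The median log2 ratio of the 7 was -5.09, against 0.08 for all measured genes. The members were chosen with earlier results of these data known, so these counts describe the 7 genes only.

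**Figure D2:**
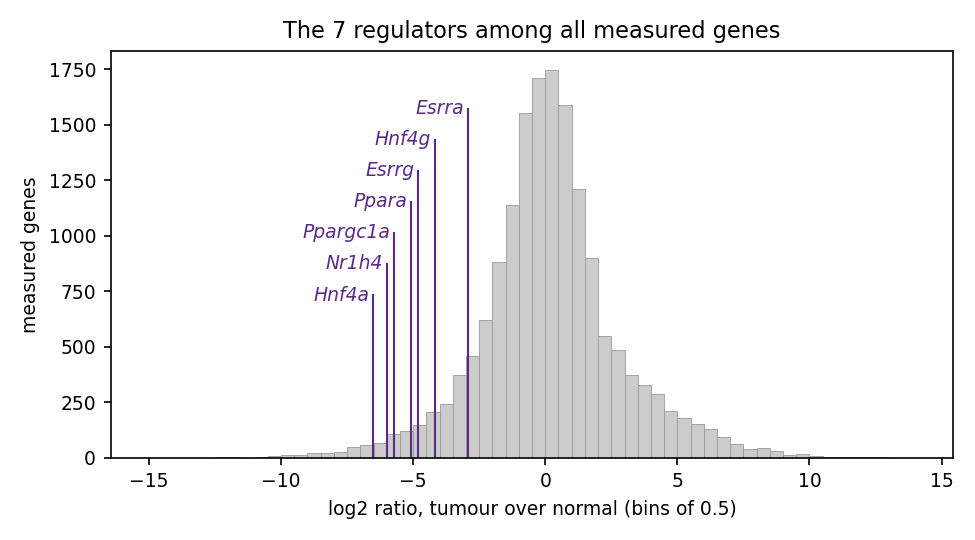
Distribution of the log2 ratio (tumour over normal, bins of 0.5) over the 16326 measured genes, with a line for each of the 7 regulators whose height carries no value. All 7 lie left of the main mass, from Hnf4a at -6.51 to Esrra at -2.91.

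By a rule on likeness, the gene with the nearest log2 ratio was taken for a regulator from the listed genes that are no markers. It was Abcc2, an organic anion export pump, for Hnf4a (-6.43 against -6.51), Ass1, an enzyme of arginine synthesis, for Nr1h4 (-5.83 against -6.01) and the glucose carrier Slc2a2 for Ppargc1a (-5.79 against -5.71). For Esrrg it was the homeobox factor Irx1 (-4.75 against -4.80) and for Esrra the factor Pou3f3 (both -2.91). Likeness over 2 libraries is a single difference of ratios.

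Among nuclear receptors the 6 receptors of the group held 59.9% of the summed RPKM of 43 receptors in normal kidney and 6.38% in the tumour. The clock receptors of the Nr1d and Ror groups were left out. So was Nr0b2 (1.02 and 0 RPKM), which was listed with the FXR targets. Hnf4a, Nr1h4, Esrra and Ppara stood at places 1, 2, 3 and 5 in the normal kidney, and at places 17, 22, 10 and 25 in the tumour. The vitamin D receptor Vdr held place 4 in the normal library and was itself 36.1-fold lower (30.5 to 43.1), a gene named after its values were seen. The tumour was led by Nr6a1 (germ cell nuclear factor), which represses Pou5f1 as embryonic cells differentiate, at 29.3 RPKM against 1.02 RPKM, 22.4-fold higher (19.7 to 25.6). Nr0b1 (DAX1), a receptor made in embryonic stem cells, had 2 reads in normal kidney and 511 in tumour (244-fold, 67.1 to 2018), and Nr5a2, another receptor of pluripotent cells, had 13 and 388 reads (28.5-fold, 16.5 to 54.0). Of 23 measured receptors outside the group and its kin, the calls were 9 lower, 8 higher and 6 neither (median log2 ratio 0.15). These were 39.1% lower and 34.8% higher, against 28.0% and 31.2% of all measured genes. The lowest of the 23 was the thyroid hormone receptor Thrb, 48.7-fold lower (33.96 to 72.5).

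**Figure D3:**
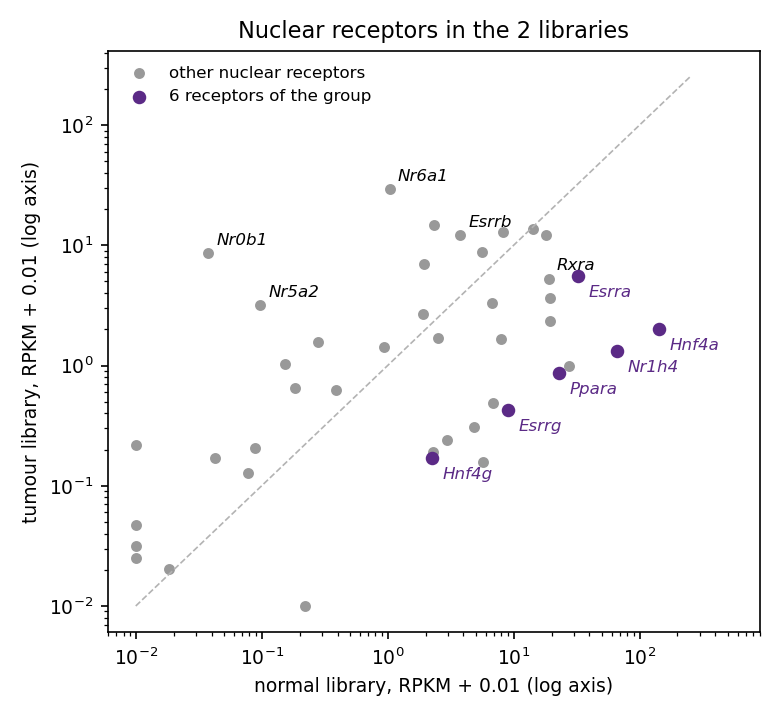
RPKM plus 0.01 of 43 nuclear receptors in the normal (x) and the tumour library (y), both on log axes, with the 6 receptors of the group in purple and equality as a dashed line. The 6 lie below the line, and Nr6a1, Nr0b1, Nr5a2 and Esrrb lie above it.

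The closest relatives of the regulators did not follow them throughout. Of 8 relatives 7 were measured, with 2 lower (28.6%), 2 higher (28.6%) and 3 neither. These shares were near those of all measured genes, 28.0% lower and 31.2% higher. Esrrb, the estrogen-related receptor of naive pluripotent cells, had 637 reads and 3.76 RPKM in the normal and 1694 reads and 12.2 RPKM in the tumour, 2.54-fold higher (2.31 to 2.78). Of the summed RPKM of the 3 estrogen-related receptors, which was 45.6 in normal kidney and 18.2 in tumour, Esrrb thus made up 8.25% and 67.0%, Esrra 71.8% and 30.7%, and Esrrg 19.9% and 2.29%.

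Among the coactivators of the PGC-1 family the 3 genes went apart as well. Pprc1, a relative of PGC-1alpha that is linked to growing cells, had 270 and 2836 reads and was 10.02-fold higher (8.84 to 11.4). Ppargc1b, the gene of PGC-1beta, had 278 and 45 reads and was 6.48-fold lower (4.71 to 9.08). Ppard and Pparg, the other receptors of the PPAR group, had few reads, 121 and 151 for Ppard and 27 and 36 for Pparg. Their log2 ratios of 0.25 and 0.35 had intervals that included no difference, 0.931 to 1.52 and 0.751 to 2.18 as folds. Of the sterol receptors related to FXR, Nr1h3 (LXRalpha) was 10.8-fold lower (9.03 to 12.9), from 1417 to 138 reads. Nr1h2 (LXRbeta) had 1145 and 915 reads, and its log2 ratio of -0.39 turned to 0.17 when counts were scaled to counted reads alone. Nr1h5 had 0 and 2 reads.

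Retinoid X receptors, the partners that PPARA and FXR need for DNA binding, differed by gene. Rxra had 4025 reads in normal kidney and 917 in tumour and was 4.60-fold lower (4.28 to 4.95). Rxrb had 873 and 1127 reads, with a log2 ratio of 0.30 (1.13-fold to 1.35-fold). Rxrg had 15 and 45 reads and was 2.86-fold higher (1.57 to 5.53). Rxra held the largest RPKM of the 3 in the normal library, 18.9 against 8.24 for Rxrb, and Rxrb in the tumour, 12.95 against 5.26.

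**Figure D4:**
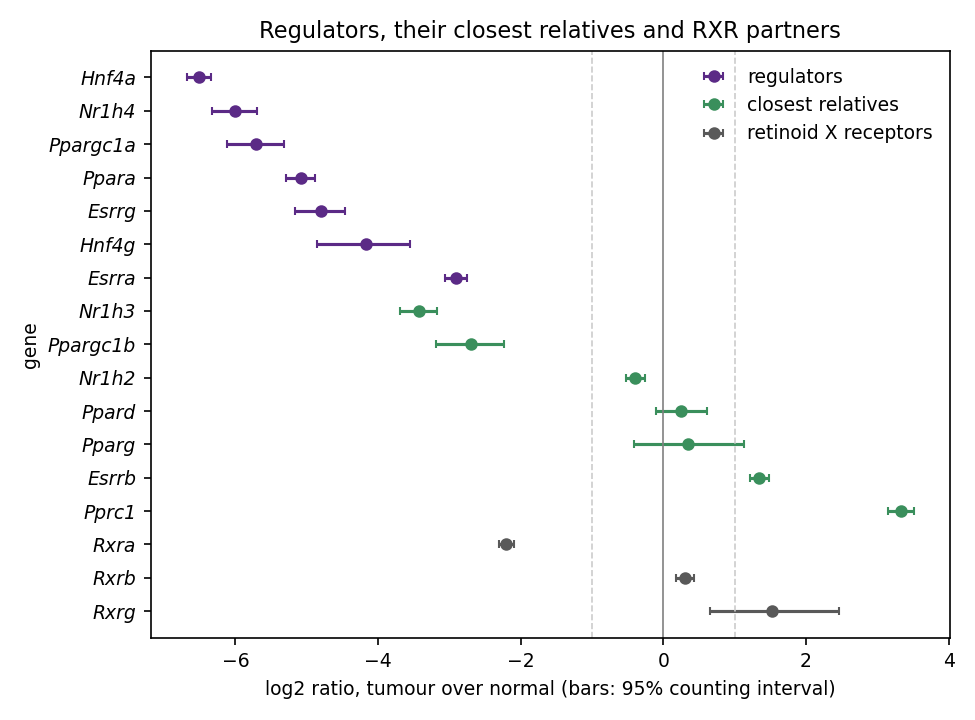
Log2 ratio (tumour over normal) with 95% counting intervals for the 7 regulators (purple), their 7 measured relatives (green) and the 3 retinoid X receptors (grey), with dashed lines at 2-fold. All regulators lie beyond the lower dashed line, whereas Esrrb, Pprc1 and Rxrg lie beyond the upper dashed line.

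Against 28.0% lower and 31.2% higher over all measured genes, the coregulators had 18.75% lower and 25.0% higher. Of 16 measured coregulators of these receptors 3 were lower, 4 were higher and 9 neither (median log2 ratio 0.03). Scaled to counted reads alone or to header totals, 3 were lower, 6 higher and 7 neither. Perm1, a muscle-type partner of PGC-1alpha and the estrogen-related receptors, had 269 reads in normal kidney and 2 in tumour (141-fold lower, 38.7 to 1170). The AMP-activated kinase subunit Prkaa2, which phosphorylates PGC-1alpha, was 20.3-fold lower (18.5 to 22.4), and Lpin1, a coactivator of PPARA, 10.6-fold (9.60 to 11.7). These last 2 were named after their values were seen, to complete the count. On the higher side were Kat2a (GCN5), the acetyltransferase that represses PGC-1alpha, at 4.55-fold (4.07 to 5.10), Fbxw7, a ubiquitin ligase subunit that marks PGC-1alpha for breakdown, at 2.56-fold (2.31 to 2.83) and the deacetylase Sirt1 with a log2 ratio of 1.16, likewise added for the count.

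Other transcription factors of tubule and collecting duct were lower in 18 of 19 cases, with a median log2 ratio of -2.91. That was 94.7%, against 28.0% of all measured genes. Scaled to counted reads alone, to header totals or with 0.1 added to each RPKM, 17 were lower. With 1 added to each RPKM, 14 were lower. Foxi1, the factor of intercalated cells, was 35.6-fold lower (19.7 to 72.0), from 374 to 11 reads, and Irx1, of the intermediate nephron segments, 26.9-fold (18.2 to 41.4). Grhl2, an epithelial factor that is also made outside the kidney, was 5.48-fold higher (4.81 to 6.28). Of the 7 regulators, 6 had a lower ratio than that median, and Esrra stood at the same rounded value of -2.91.

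Genes described as dependent on HNF4A in liver or proximal tubule were lower in 15 of 16 cases, with a median of -6.12. These were 93.75% lower and 6.25% higher, against 28.0% and 31.2% of all measured genes. Slc34a1, a phosphate transporter of the proximal brush border, had 135468 reads in normal kidney and 91 in tumour (1560-fold lower, 1271 to 1938). The glucose transporter Slc5a2 was 657-fold lower (460 to 974) and the organic anion transporter Slc22a6 564-fold (433 to 749). Slc34a1, Slc5a2 and Slc22a6 are also on the list of proximal tubule markers, so the lists are not separate observations. Against Hnf4a itself (-6.51), 7 of the 16 had a lower and 9 a higher ratio. Apoa1, the main protein of HDL, had 19 and 74 reads and was 3.72-fold higher (2.22 to 6.52).

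PPARA targets were lower in 19 of 23 measured cases, higher in 2 and neither in 2 (median log2 ratio -3.28). As shares, 82.6% were lower and 8.70% higher, against 28.0% and 31.2% of all measured genes. The peroxisomal enzyme Ehhadh was 138-fold lower (120 to 158) and the peroxisomal thiolase Acaa1b 131-fold (106 to 165). The fatty acid hydroxylase Cyp4a10 was 81.5-fold lower (70.7 to 94.6). Only 6 of the 23 had a lower ratio than Ppara (-5.09). Fabp1, a fatty acid carrier of gut and liver, had 37 and 186 reads and was 4.796-fold higher (3.36 to 7.02), and Creb3l3 was the other higher target (6 and 17 reads). The targets that were neither were the pyruvate dehydrogenase kinase Pdk4 (log2 ratio -0.94) and the lipid droplet protein Plin2 (-0.51), these last 3 named after their values were seen.

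Targets of PGC-1alpha and the estrogen-related receptors were lower in 20 of 26 cases, Esrra itself among them. Of the rest, 1 was higher and 5 neither (median -2.02). The lower share was 76.9% and the higher share 3.85%, against 28.0% and 31.2% of all measured genes. Cat, the peroxisomal catalase, was 22.4-fold lower (21.3 to 23.5), the acyl-CoA dehydrogenase Acadm 22.2-fold (21.1 to 23.4) and the mitochondrial superoxide dismutase Sod2 9.96-fold (9.38 to 10.6). None of the 26 had a lower ratio than Ppargc1a (-5.71), and 4 of the other 25 had a lower ratio than Esrra (-2.91). Nrf1, a transcription factor of nuclear genes for mitochondria, was 3.46-fold higher (3.07 to 3.90), from 349 to 1264 reads. The neither members were Tfam, Tfb1m and Gabpa, factors of mitochondrial DNA and nuclear mitochondrial genes, with log2 ratios of 0.39, 0.92 and 0.42, and malate dehydrogenase Mdh2 and Pdk4, with -0.99 and -0.94. These 5 were named after their values were seen, and Acadm and Pdk4 are on the PPARA list too.

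Targets raised by FXR were lower in 7 of 11 measured cases (63.6%) and higher in 4 (36.4%), with a median of -2.27. Over all measured genes 28.0% were lower and 31.2% higher, so the higher share was near that of all measured genes. The anion pump Abcc2 was 86.02-fold lower (75.7 to 98.2), and Slc51a and Slc51b, which form the bile acid exporter of the basal membrane, had values of 79.5-fold lower (52.3 to 127) and 47.7-fold lower (28.2 to 87.7). Fgf15, the FXR target of the gut that is also made in the embryo, was at 0 reads in normal kidney and at 798 in the tumour. With a floor of 3 counts per library it was 254-fold higher, with a lower limit of 206 for counting error. The other higher targets were the proteoglycan Sdc1 (2.99-fold, 2.70 to 3.31), the phospholipid transfer protein Pltp (4.37-fold, 3.602 to 5.33) and the apolipoprotein Apoc2, with 1 and 37 reads. Nr0b2 (SHP), the receptor through which FXR represses bile acid synthesis, was at 46 reads in normal kidney and at 0 in the tumour. By the same floor that was 16.1-fold lower, with a lower limit of 12.6. These 4 were named after their values were seen. Of the 11 targets 2 had a lower ratio than Nr1h4 (-6.01).

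**Figure D5:**
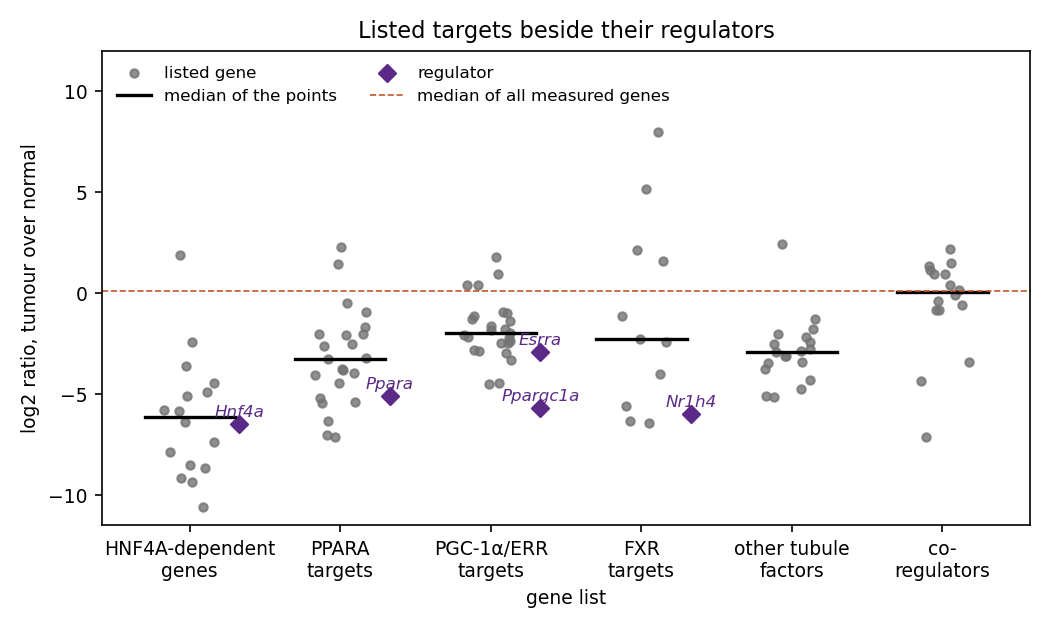
Log2 ratio (tumour over normal) of each measured gene in the lists of targets, tubule factors and coregulators (grey points, spread sideways for display), the median of the points (black), the regulator of each target list (purple diamonds, left out of the points) and the median of all measured genes (dashed, 0.08). HNF4A-dependent genes lie on both sides of Hnf4a, whereas all points of the PGC-1alpha list lie above Ppargc1a.

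In a bulk sample, fewer cells of a type and less RNA per cell cannot be told apart, and tubule markers were lower together with the regulators. All 12 proximal tubule markers were lower, where 28.0% of all measured genes were called lower. Their median log2 ratio was -8.22, and their summed level was 59658 CPM in normal kidney and 945 CPM in tumour, 1.58% of the normal sum. For the 8 markers of thick limb and distal tubule, all lower, it was 10573 and 56.7 CPM (0.536%), with Pvalb at 0 reads in the tumour. For the 7 collecting duct markers, all lower, it was 423 and 22.3 CPM (5.28%). A few genes lead the proximal sums, Kap in the normal library (26535 CPM) and Lrp2 and Cubn in the tumour (610 and 210 CPM). The proximal percentage of the sum thus differs from the median ratio of the markers. The regulators stood at 1.10% of the normal level for Hnf4a (0.977% to 1.24%), 1.55% for Nr1h4, 1.91% for Ppargc1a, 2.94% for Ppara, 3.59% for Esrrg, 5.57% for Hnf4g (3.45% to 8.55%) and 13.3% for Esrra (11.996% to 14.8%). The part of the tubule cell content in each value was not tested.

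Markers of other tissues that make these regulators were present as well. Of 11 measured markers of visceral endoderm, gut and liver 5 were higher (45.5%), 4 lower (36.4%) and 2 neither. For this and the next lists, the shares of all measured genes were 31.2% higher and 28.0% lower. Foxa2 and Gata4, endoderm factors picked as examples with their values in view, had 0 reads in the normal library and 273 and 244 in the tumour, whereas Alb, the liver albumin, had 260 and 0. The summed level of this list, which Apob leads and which shares Apoa1, Apob and Ttr with the HNF4A list, was 1874 and 114 CPM. All 5 measured striated muscle markers of 7 were higher (summed 12.9 and 163 CPM), and of 2 measured adipocyte markers of 4, Adipoq was higher (0 and 23 reads) and Fabp4 lower (887 and 396 reads), with sums of 36.8 and 16.9 CPM. In every list, a gene with 0 reads in 1 library passed the minimum of 20 reads only through the other, which fixed its call. This holds for Adipoq and for the muscle marker Myog (0 and 20 reads). With at least 100 reads 2 muscle markers remained, both higher. The call of Fabp4 ended when counts were scaled to counted reads alone (log2 ratio -0.67) or to header totals (-0.88), and the call of each muscle marker ended with RPKM plus 1. Their part in the tumour levels of the 7 genes was not tested.

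Of the remaining marker lists, 5 of 5 pluripotent cell markers were higher (0.0829 and 1310 CPM summed, with Pou5f1, Sox2 and Zfp42 at 0 reads in normal kidney), as were 5 of 5 markers of dividing cells (24.8 and 2519 CPM) and 5 of 5 of neurons (13.1 and 121 CPM). Macrophage markers were higher in 4 of 5 measured cases (97.9 and 313 CPM), stromal markers in 2 of 5 with 3 neither (262 and 510 CPM). The stromal share of 40.0% higher was near the 31.2% of all measured genes, of which 28.0% were lower. Endothelial markers were lower in 3 of 5 cases (418 and 111 CPM) and podocyte markers in 2 of 4 (329 and 211 CPM), and the others were neither. Of the podocyte markers 1 was lower when counts were scaled to counted reads alone or to header totals. Reads of the Pou5f1 and Sox2 transgenes and of the endogenous genes cannot be told apart in these counts.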

How the data were processed

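Per the labels' protocols, ribosomal RNA was removed from total RNA and stranded libraries were made. The deposited counts are whole numbers of reads per gene model, for 32958 models of the UCSC knownCanonical set by exons. The deposited RPKM values equal the count divided by model length and by the header total (40408775 and 33169818 reads), with a largest difference of 1.80e-06. HOMER, STAR 2.5.0c, bcl2fastq and mm10 are listed in the submitters' processing notes, without roles. The sources used here do not give the handling of multi-mapping reads.

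Where 1 symbol had several models, the model with the most reads stood for it. TMM factors (edgeR 4.0.16, R 4.3.3) were 0.824 (normal) and 1.21 (tumour). Ratios carry exact conditional (Clopper-Pearson) intervals, RPKM exact Poisson intervals, and pairs of genes exact conditional odds ratio intervals, all at 95% and for counting error only, since PCR copies are not told apart from molecules. A count of 0 was set to 3 counts (0.124 and 0.119 CPM). With 1 library per group no p-value was computed. Python 3.11.15, numpy 2.4.6, pandas 2.3.3, scipy 1.17.1, matplotlib 3.10.9 and, for size factors, DESeq2 1.42.0 were used.

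The 7 genes and the 22 lists of relatives, targets and markers were chosen with earlier results of these data known. The text names all regulators, relatives and retinoid X receptors and, from the other non-marker lists, the 3 largest ratios in the direction of the median and the largest the other way if at least 2-fold, among genes whose mean reached 1 CPM, and the listed gene nearest to each regulator. Some genes that this rule selects are not reported here. Any other gene was named with its values in view. The macrophage marker Emr1 was not found by symbol.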

Additional observations from a re-analysis of the deposited data

How the results depend on the processing

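All 7 regulators were called lower under each of the 12 alternative settings tried (other scalings, RPKM in place of counts, summed models, other read minimums, floors and folds). Under these settings the share of all genes called lower ran from 15.6% (no filter on reads) to 35.1% (1.5-fold call). No listed gene called higher or lower turned its direction. The log2 ratios of the regulators were -5.95 for Hnf4a, -5.45 for Nr1h4, -5.15 for Ppargc1a, -4.53 for Ppara, -4.24 for Esrrg and -2.35 for Esrra with plain CPM, which raised the median of all measured genes by 0.56. With header totals, which raised it by 0.35, they were -6.15 for Hnf4a, -5.66 for Nr1h4, -4.73 for Ppara, -4.45 for Esrrg and -2.55 for Esrra. With RPKM plus 0.1 they were -6.08 for Hnf4a, -5.55 for Nr1h4, -4.89 for Ppargc1a, -4.58 for Ppara, -4.15 for Esrrg, -3.17 for Hnf4g and -2.53 for Esrra. With RPKM plus 1, which shrinks the ratio of genes with low RPKM by construction, they were -5.58, -4.86, -3.19, -3.68, -2.83, -1.48 and -2.36 in the same order. Ratios with DESeq2 size factors, and with TMM without mitochondrial models and Rn45s, lay within the counting intervals. The share of calls that were higher was 52.8% in the reported values, 67.6% under plain CPM, 62.5% under header totals and 62.6% under RPKM plus 0.1. Among the PGC-1alpha and estrogen-related receptor targets 2 genes were higher with plain CPM, header totals, both RPKM settings and a 1.5-fold call, against 1. With a 4-fold call 0 of them were higher and 13 lower, against 20 lower. Lower genes of this list numbered 17 with plain CPM and both RPKM settings, 18 with header totals and 22 with a 1.5-fold call. Lower FXR targets numbered 6, against 7, with plain CPM, header totals, both RPKM settings and a 4-fold call, and 5 with at least 100 reads. Higher PPARA targets numbered 1, against 2, with RPKM plus 0.1, RPKM plus 1, at least 100 reads and a 4-fold call. The single higher HNF4A-dependent gene and the single higher retinoid X receptor left the count (0) with at least 100 reads and with a 4-fold call, and the latter with RPKM plus 1. With a 4-fold call 1 relative and 1 coregulator were higher, against 2 and 4, and with a 1.5-fold call 5 coregulators were lower, against 3. Calls of named genes also ended for Fabp4 under plain CPM, header totals and both RPKM settings, for Creb3l3 under both RPKM settings and for Adipoq and Rxrg under RPKM plus 1, while Tfb1m became higher under plain CPM, header totals and both RPKM settings. Under RPKM plus 1 the 5 muscle markers were neither. The cause of these moves was not tested, beyond what the settings change by construction. No paired analysis was possible because each group holds 1 library. With 22 to 413 reads per regulator in the tumour library, counting error limits Hnf4g, Ppargc1a and Esrrg most.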
